A study of Danio rerio with 12 samples.

Results

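Cytotoxic lymphocytes, the killer T cells and natural killer cells, destroy target cells by releasing granules that hold granzymes, which are proteases, together with pore-forming proteins such as perforins and NK-lysins. The transcription factors T-bet and Eomesodermin switch this program on in mammals. The genes of the program followed here were chosen by their zebrafish Ensembl gene name. They were the granzyme genes *gzmk* and *gzma*, the NK-lysin genes *nkl.2*, *nkl.3* and *nkl.4*, whose products are related to human granulysin, and the transcription factor genes *tbx21* (T-bet) and *eomesa* (Eomesodermin). All 7 were found among the 25607 zebrafish genes of the table.

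RNA was sequenced from tumor cells of zebrafish that carry human IRF4 and the fluorescent protein mCherry under the zebrafish *lck* promoter, which is active in lymphocytes, and that had developed lymphoma. The cells were sorted for mCherry, and the animals of the bulk RNA sequencing were 10 months old. Fish in individual tanks received 4 µM JQ1, an inhibitor of bromodomain proteins of the BET family, or an equal amount of its solvent DMSO. The treated fish that the study imaged had wild-type *p53*, and its methods for the bulk RNA do not name the *p53* genotype. The 12 libraries fell into JQ1 day 3, DMSO day 3, JQ1 day 1 and DMSO day 1, with 3 animals a group, and both transgenes were carried in all groups, the controls included.

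Counts on zebrafish genes ranged from 8176139 to 12771912 a library (median 11790786), so that 3 counts, taken as the limit for a gene without counts, stood for 0.235 to 0.367 CPM (counts scaled to library size). These limits cover counting error only, and the spread between animals was wider. Human IRF4 and mCherry were lowest in JQ1 day 3 replicate 2, with 503 and 283 CPM. In the other libraries they had 2316 to 6660 CPM and 1485 to 5236 CPM. At day 3 the summed level of 7 T-cell markers was 523 to 1821 CPM in JQ1 libraries and 2857 to 3771 CPM in DMSO libraries, with none of the 7 at 0 in any library. Tested singly (edgeR's quasi-likelihood test, adjusted p under 0.05), 2 of the 7 were lower and 1 was higher with JQ1. Of all genes 9.91% were lower and 15.3% higher. Sums over 4 macrophage markers (268 to 1573 CPM with JQ1, 27.9 to 134 CPM with DMSO) and over 6 germ-cell markers (151 to 1085 CPM with JQ1, 22.5 to 50.4 CPM with DMSO) were higher in every JQ1 library of that day. So were sums over 3 skin markers (229 to 592 CPM with JQ1, 7.58 to 52.5 CPM with DMSO) and 3 endothelial markers. B-cell, granulocyte and erythrocyte sums overlapped. At day 1 the germ-cell sums (259 to 495 CPM with JQ1, 26.9 to 38.7 CPM with DMSO) were higher in every JQ1 library. So were the skin sums (540 to 1373 and 5.28 to 60.9 CPM) and the granulocyte marker, while the other marker sums overlapped. In bulk RNA fewer cells of a type and less RNA per cell cannot be told apart, and the part of these other cells in the results was not tested.

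The main observation on the 7 genes was their spread between animals of one group. No member passed an adjusted p of 0.05 in edgeR's quasi-likelihood test in any of the 6 comparisons made, and the highest level of 4 of the 7 lay in JQ1 libraries of replicate 2 at day 1 or replicate 3 at day 3. For *gzmk* and *nkl.2* it lay in 1 vehicle library, DMSO day 1 replicate 2, and for *gzma* in JQ1 day 1 replicate 3. The levels below are CPM normalised by the trimmed mean of M-values (TMM) over all 12 libraries. Genes are not compared with each other by level, since the counts were not set against gene length.

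**Figure D1:**
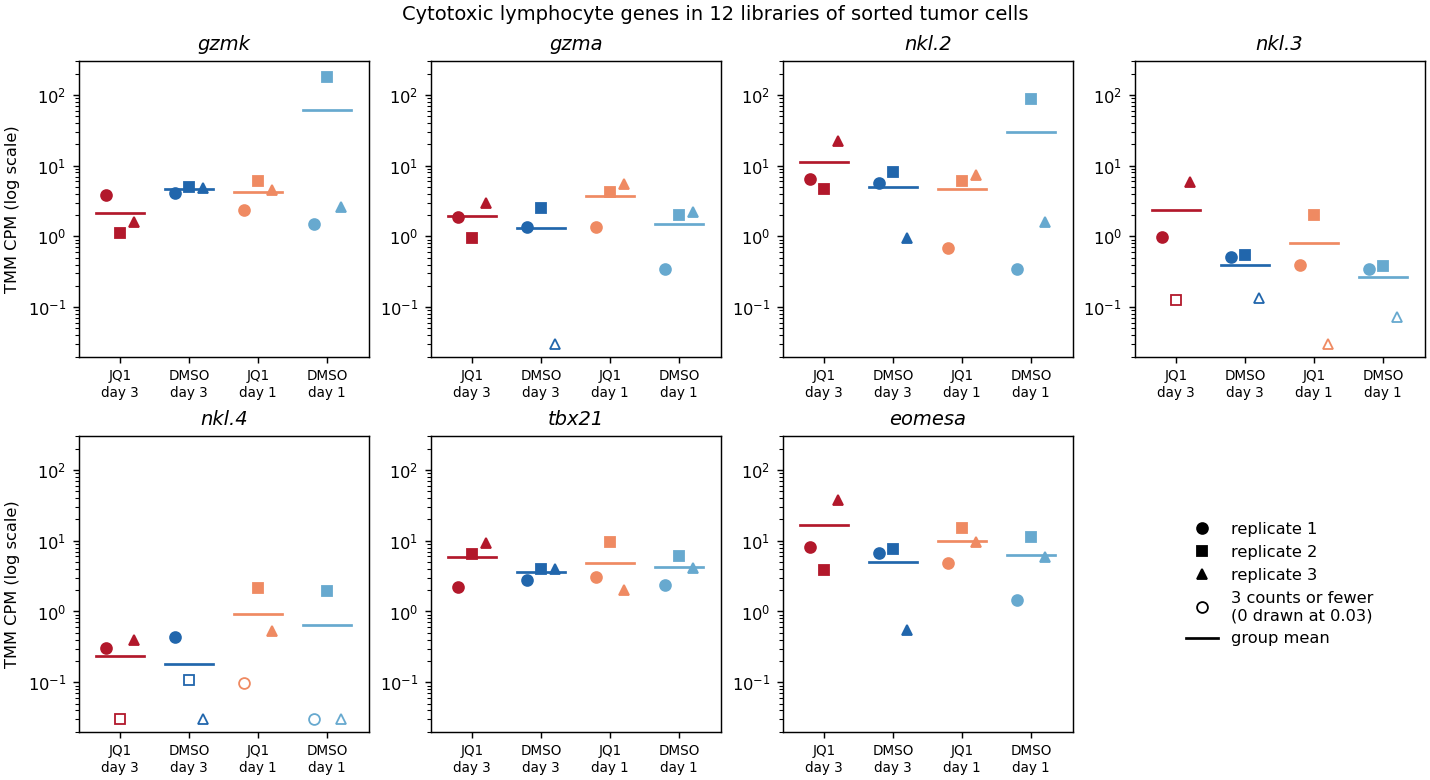
Each panel plots 1 gene, with its level in TMM CPM on a log axis for every library of the 4 groups, symbols by replicate number and lines at the group means. Hollow symbols mark libraries with 3 counts or fewer, and the 177 CPM of *gzmk* in DMSO day 1 replicate 2 stands far above its other 11 libraries, which lie between 1.12 and 5.99 CPM.

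Granzymes come first among the effectors. *gzmk* (ENSDARG00000028780), a granzyme of the memory T-cell type in mammals, had 3.82, 1.12 and 1.58 CPM in the JQ1 libraries of day 3, against 4.05, 5.02 and 4.78 CPM in the DMSO libraries of day 3. At day 1 it had 2.36, 5.99 and 4.56 CPM with JQ1, against 1.48, 177 and 2.64 CPM with DMSO. The 3 JQ1 libraries of day 3 all lay below the 3 DMSO libraries, while at day 1 the groups overlapped and replicate 2 of the DMSO group stood apart. That library held 1844 of the 2258 counts of *gzmk* in the series (81.7%), and its level was 29.5 times that of the next library. The group means were 2.17 ± 1.44, 4.62 ± 0.505, 4.30 ± 1.83 and 60.4 ± 101 CPM in JQ1 day 3, DMSO day 3, JQ1 day 1 and DMSO day 1 (SD, n = 3 each). Without the library that stood apart, the order of the 4 groups would rest on levels between 1.12 and 5.99 CPM. In the annotation of RefSeq (GRCz12tu) the span of *rxfp3* overlaps that of *gzmk*, and *rxfp3* had at most 1 count in any library here.

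*gzma* (ENSDARG00000090380) encodes granzyme A, a protease that cleaves after basic residues, and is the neighbour of *gzmk* in the table. It had 1.91, 0.937 and 2.92 CPM in JQ1 libraries of day 3, against 1.38, 2.51 and 0 CPM in DMSO libraries of day 3. At day 1 the levels were 1.37, 4.26 and 5.52 CPM with JQ1, against 0.347, 2.02 and 2.20 CPM with DMSO. The groups overlapped on both days, and the 0 of DMSO day 3 replicate 3 allows up to 0.410 CPM at the depth of that library. In DMSO day 1 replicate 2, where *gzmk* was so high, *gzma* lay inside the range of the other libraries. The ratio of *gzmk* to *gzma* counts, which cancels the length of the genes when set between libraries, was 87.8 there and 0.541 to 4.25 in the 10 other libraries with more than 3 counts of *gzma*.

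The NK-lysins followed yet another pattern. *nkl.2* (ENSDARG00000058673) had 6.56, 4.75 and 22.4 CPM in JQ1 libraries of day 3, against 5.68, 8.18 and 0.957 CPM in DMSO libraries of day 3. At day 1 it had 0.687, 6.08 and 7.36 CPM with JQ1, against 0.347, 88.2 and 1.61 CPM with DMSO. The groups overlapped on both days, and 54.1% of its 1700 counts came from DMSO day 1 replicate 2, with JQ1 day 3 replicate 3 next in order. The level in the first of these libraries was 3.93 times that in the second, and the lowest of all lay in another library of the same DMSO group. *gzmk* did not share the second peak, with 1.58 CPM in JQ1 day 3 replicate 3.

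*nkl.3* (ENSDARG00000089202) lies beside *nkl.2* in the table and had few counts, 138 in all 12 libraries. Its levels were 0.992, 0.125 and 5.92 CPM in JQ1 day 3 and 0.517, 0.545 and 0.137 CPM in DMSO day 3. At day 1 they were 0.393, 2.0 and 0 CPM with JQ1, against 0.347, 0.384 and 0.0733 CPM with DMSO. JQ1 day 3 replicate 3 held 54.3% of its counts, and in 4 of the 12 libraries it had 3 counts or fewer. In DMSO day 1 replicate 2 it had 4 counts, against 919 of *nkl.2*, a ratio of 230, compared with 1 to 15 in the 7 other libraries with more than 3 counts of *nkl.3*. Only reads with a unique place entered the counts, and reads shared by the NK-lysin copies are absent from all their values.

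*nkl.4* (ENSDARG00000044023) had no more than 3 counts in 6 of the 12 libraries. It had 4, 0 and 5 counts in JQ1 day 3, against 5, 1 and 0 counts in DMSO day 3. At day 1 it had 1, 25 and 6 counts with JQ1, against 0, 20 and 0 counts with DMSO. Its highest levels, 2.17 CPM in JQ1 day 1 replicate 2 and 1.92 CPM in DMSO day 1 replicate 2, came from an animal of each treatment. At this depth no difference between the groups was detectable for this gene, and it passed the filter on low counts in none of the 6 comparisons.

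Of the transcription factor genes, *tbx21* (ENSDARG00000004473) had 2.21, 6.44 and 9.15 CPM in JQ1 libraries of day 3, against 2.76, 4.03 and 3.96 CPM in DMSO libraries of day 3. At day 1 it had 3.04, 9.47 and 2.02 CPM with JQ1, against 2.35, 6.14 and 4.10 CPM with DMSO. Its group means, 5.93 ± 3.50, 3.58 ± 0.718, 4.84 ± 4.04 and 4.20 ± 1.90 CPM in JQ1 day 3, DMSO day 3, JQ1 day 1 and DMSO day 1 (SD, n = 3 each), lay within 1 SD of their neighbours in order, and its highest library had 2.37 times the median of the 12. In DMSO day 1 replicate 2 it had 6.14 CPM, below its levels in 3 JQ1 libraries.

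*eomesa* (ENSDARG00000006640), the second factor, had 8.09, 3.87 and 37.6 CPM in JQ1 libraries of day 3, against 6.63, 7.74 and 0.547 CPM in DMSO libraries of day 3. At day 1 it had 4.81, 15.1 and 9.73 CPM with JQ1, against 1.48, 11.4 and 5.86 CPM with DMSO. The means were 16.5 ± 18.4, 4.97 ± 3.87, 9.88 ± 5.15 and 6.25 ± 4.98 CPM in JQ1 day 3, DMSO day 3, JQ1 day 1 and DMSO day 1 (SD, n = 3 each), and the groups overlapped on both days. JQ1 day 3 replicate 3 held 35.4% of its counts, and the low end was DMSO day 3 replicate 3, the library in which *gzma* had no count. The count table names by ID only, and the name Eomes is given to 2 IDs. The ID used here was settled by its neighbours, since 14 of 14 placed neighbours lie near *eomesa* in RefSeq. The RefSeq span of *eomesa* overlaps that of *LOC141378956*.

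JQ1 was next compared with DMSO at day 3, the question being whether the bromodomain inhibitor moved the program in the tumor cells. Of the 5 members that passed the filter on low counts (*nkl.3* and *nkl.4* did not), 0 passed the threshold and 0 had an unadjusted p under 0.05, where 25.2% of the 16271 genes tested passed it. The log2 fold changes (edgeR, Benjamini-Hochberg adjusted p) were −1.03 ± 0.59 for *gzmk* (SE, adjusted p = 0.217) and 0.60 ± 1.1 for *gzma* (adjusted p = 0.697). *nkl.2* had 1.23 ± 0.87 (adjusted p = 0.309), *tbx21* 0.79 ± 0.60 (adjusted p = 0.338) and *eomesa* 1.77 ± 1.08 (adjusted p = 0.245). The median of the 5 was 0.79, beside 0.05 over all genes tested. *gzmk* was the only member whose 3 JQ1 libraries did not overlap the 3 DMSO libraries, with an exact two-sided permutation p of 0.1, the smallest that 3 against 3 allows. Of all genes tested at day 3, 51.3% did not overlap between the groups. DESeq2 called 0 of the members at day 3 as well.

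At day 1 the same test called 0 of 5 members, where 0.0443% of 15813 genes passed the threshold. *gzmk* had the largest difference, −3.77 ± 1.67 (SE, adjusted p = 0.236, unadjusted p = 0.0566), followed by *nkl.2* with −2.62 ± 1.75 (adjusted p = 0.411). Both rested on DMSO day 1 replicate 2. Without it *gzmk* had 1.04 ± 0.71 (adjusted p = 0.442) and *nkl.2* 2.23 ± 1.18 (adjusted p = 0.332), so that both signs turned. *gzma* had 1.31 ± 0.85 (adjusted p = 0.404), *eomesa* 0.69 ± 0.75 (adjusted p = 0.633) and *tbx21* 0.23 ± 0.72 (adjusted p = 0.886). No member had groups that did not overlap at day 1, where 31.1% of all genes tested did.

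Over both days, with day as a term and 6 libraries a side, 0 of the 6 members tested passed the threshold, beside 36.6% of 18116 genes. *gzmk* had the only unadjusted p under 0.05 (0.0375), with −2.49 ± 1.07 (SE, adjusted p = 0.0838). Leaving out DMSO day 1 replicate 2 brought it to −0.19 (adjusted p = 0.803), while leaving out DMSO day 1 replicate 3 brought it to −2.74 and past the threshold (adjusted p = 0.0436). *nkl.3* had 2.05 ± 1.02 (adjusted p = 0.129), *eomesa* 1.19 ± 0.71 (adjusted p = 0.199), *gzma* 0.92 ± 0.74 (adjusted p = 0.335), *tbx21* 0.47 ± 0.47 (adjusted p = 0.443) and *nkl.2* −0.75 ± 1.37 (adjusted p = 0.680). For *nkl.3*, counts were 13 and 75 in JQ1 day 3 replicates 1 and 3 and 23 in JQ1 day 1 replicate 2. No DMSO library had more than 6. It entered this test through the JQ1 libraries where it was high, and its value is a description. *nkl.2* turned to 1.61 without DMSO day 1 replicate 2 (adjusted p = 0.119). With both that library and JQ1 day 3 replicate 3 left out, a choice made after seeing the values, 0 members passed, *gzmk* had 0.07 ± 0.59, *nkl.3* 1.13 ± 1.14 and *eomesa* 0.83 ± 0.71.

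**Figure D2:**
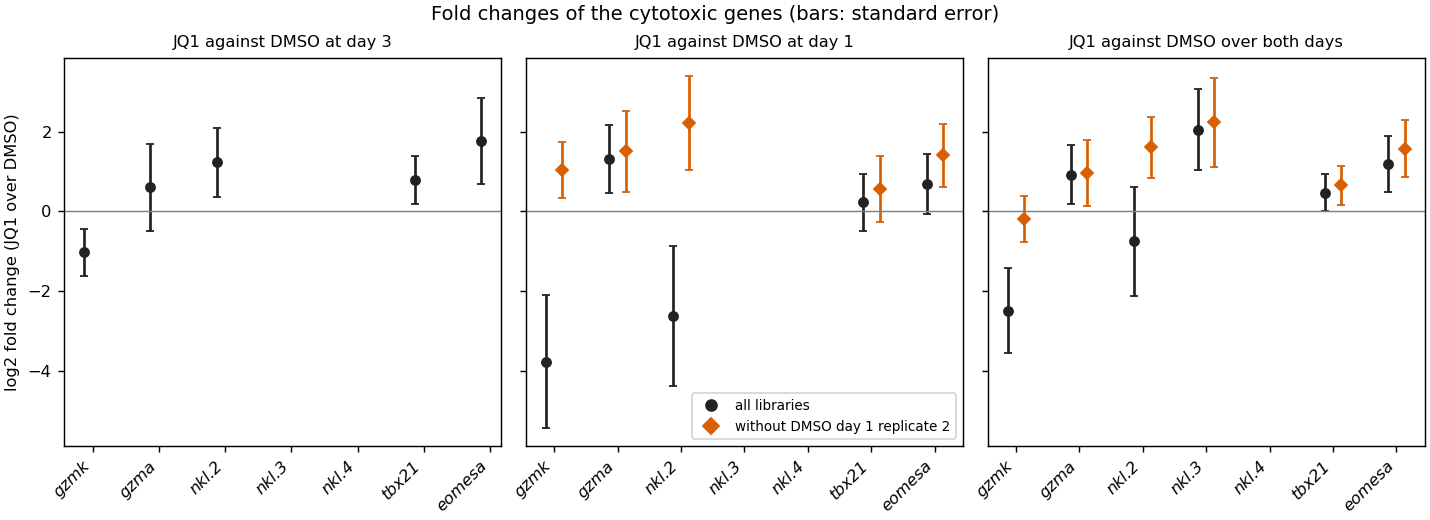
Points give the log2 fold change (JQ1 over DMSO) for each cytotoxic gene in the 3 treatment comparisons, with bars of 1 standard error, for all libraries (black) and without DMSO day 1 replicate 2 (orange). Genes with neither point did not pass the filter on low counts. The day 3 panel has no orange points, since DMSO day 1 replicate 2 is not part of that comparison. *gzmk* at day 1 stands at −3.77 with all libraries and at 1.04 without that one.

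The scale of the normalization matters for these values. Setting libraries by the ERCC spike-ins, added in proportion to cell number, moved the median of all genes (log2 fold change) to −1.51 at day 1 and −0.83 over both days, which was 0.00 and 0.10 with TMM, and 2 of 5 members (*gzmk* and *nkl.2*) were then called lower at day 1, where 37.6% of all genes were, and lay 3.95 and 3.03 below that median. Over both days 1 of 6, *gzmk*, was called lower, where 38.0% of all genes were, and lay 2.67 below the median. With TMM the day 1 differences of *gzmk* and *nkl.2* turned sign without DMSO day 1 replicate 2. ERCC scaling was not fitted without that library. Setting libraries by 4 T-cell markers moved the median of all genes to 1.72 at day 3 and 1.18 over both days. Of 5 members 3, *nkl.2*, *tbx21* and *eomesa*, were then called higher at day 3, where 41.0% of all genes were, with 2.56, 2.59 and 2.99, which is 0.84, 0.87 and 1.27 above the median of all genes. Over both days 1 of 6, *nkl.3*, was called higher with 2.99, where 33.2% of all genes were. *nkl.3* was tested there only through JQ1 libraries where it was high, so its call is a description. Beside these shares of the whole table, nothing is read from the counts about the members.

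Time was compared within each treatment and as a change of the JQ1 effect. Between JQ1 day 3 and JQ1 day 1, 0 of 6 members passed, where 0.0286% of 17460 genes did, and *nkl.3* (1.54 ± 1.56, SE) and *nkl.2* (1.25 ± 0.89) had the largest positive differences. Between DMSO day 3 and DMSO day 1, 0 of 5 members passed, where 0% of 14106 genes did. There *gzmk* had −3.81 ± 1.73 (adjusted p = 0.904) and *nkl.2* −2.70 ± 1.80 (adjusted p = 0.904), and both turned without DMSO day 1 replicate 2, to 1.08 and 2.20. The JQ1 effect at day 3 less that at day 1 was called for 0 of 6 members and for 0% of 18116 genes, with 3.84 ± 2.14 for *nkl.2* and 2.72 ± 1.84 for *gzmk*. Without the same library these were −1.07 and −2.14. By edgeR 701 genes of the DMSO comparison and 1260 genes of the change of effect had an unadjusted p under 0.05, and DESeq2 called 119 and 39 genes there. DESeq2 gave no adjusted p to *gzmk* and *nkl.2* in either, and called 0 of the other members.

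DMSO day 1 replicate 2 was therefore set beside the other 11 libraries. Among genes of at least 10 CPM, 8 were at least 5 times higher in it than in every other library, a rule made after seeing the values, and other libraries had 1 to 77 such genes. *gzmk* led the 8, followed by *EGLN3* (96.8 CPM, next highest 7.56 CPM), *cox4i1l* (44.2 CPM, next 5.45 CPM), *ANKRD37* (13.7 CPM, next 1.96 CPM) and the perforin gene *prf1.2* (48.8 CPM, next 7.56 CPM). *EGLN3* and *ANKRD37* are known in mammals as targets of the hypoxia response. The glycogen phosphorylase gene *PYGM* had 175 CPM there, against 31.2 CPM in the next library. Its T-cell marker sum of 3475 CPM ranked 3rd of the 12 libraries, its macrophage marker sum of 72.9 CPM 8th and its germ-cell marker sum of 38.7 CPM 8th. Human IRF4 (5480 CPM, not TMM-normalised) and mCherry (3945 CPM) both ranked 4th. Its B-cell marker sum of 23.7 CPM ranked 9th, with no count of *pax5* and *cd37*, 2 of the 4 markers.

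The wider set of granule effectors showed the same library on top for some genes only. Perforins form the pore through which granzymes enter a cell, and their 8 genes summed to 83.3 CPM in DMSO day 1 replicate 2, against 0.820 to 31.1 CPM in the other 11 libraries. *prf1.8* had 19.9 CPM and *PRF1* 13.5 CPM there, while *prf1.1*, *prf1.3*, *prf1.5*, *prf1.6* and *prf1.9* had at most 0.480 CPM. The 4 genes of the *gzm3* group summed to 9.69 CPM, inside the 3.28 to 14.9 CPM of the others. The 5 granzymes and NK-lysins followed here summed to 269 CPM in that library, 8.11 times the next highest sum. That next sum was 33.2 CPM in JQ1 day 3 replicate 3. Of the 269 CPM, *gzmk* gave 177 CPM and *nkl.2* 88.2 CPM, the genes for which the library was picked. *gzma* (2.02 CPM), *nkl.3* (0.384 CPM) and *nkl.4* (1.92 CPM) lay inside the range of the other libraries.

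**Figure D3:**
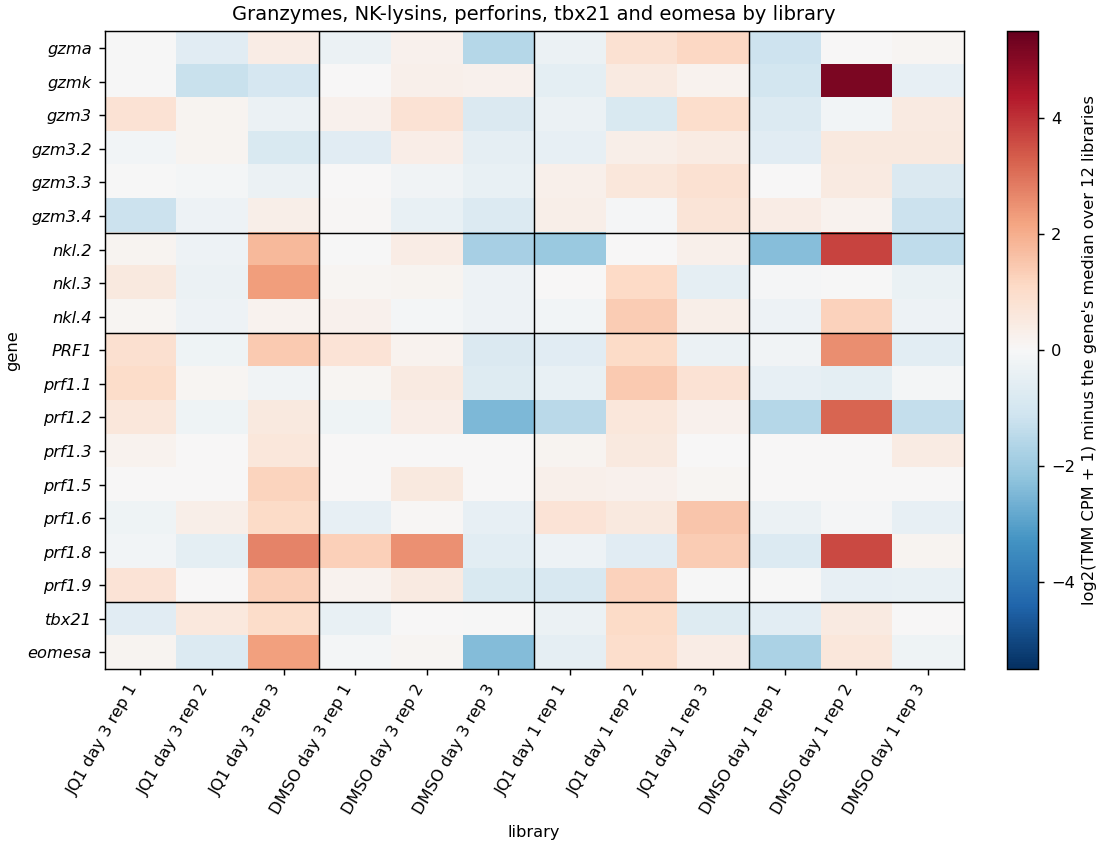
Colour gives log2(TMM CPM + 1) minus the median of the gene over the 12 libraries, with genes in rows (granzymes, NK-lysins, perforins and the 2 transcription factors) and libraries in columns. *gzmk*, *nkl.2*, *prf1.2*, *prf1.8* and *PRF1* are highest in DMSO day 1 replicate 2, whereas *nkl.3* and *eomesa* are highest in JQ1 day 3 replicate 3.

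Of the 12 other granzyme and perforin genes, 8 were tested at day 3 and none passed (median log2 fold change 0.41, all genes 0.05). Over both days 1 of 10 passed, *prf1.6*, with 1.3 CPM on average over JQ1 libraries and 0.135 CPM over DMSO libraries and a log2 fold change of 3.14 ± 1.0 (SE, edgeR adjusted p = 0.0280). It had 3 counts or fewer in 5 of the 6 DMSO libraries and at most 4 in any of them. It therefore entered the test through JQ1 libraries where it was high, and the call is a description. Its DMSO mean lay below the limit of 3 counts (0.294 CPM on average over DMSO libraries), so the size of the change is uncertain. It had 2.12 with ERCC scaling (adjusted p = 0.0924), and with replicate number as a block its adjusted p was 0.0527. The call was lost without any 1 of 5 libraries (highest adjusted p = 0.0676). These were DMSO day 1 replicate 1, DMSO day 3 replicates 1 and 3, JQ1 day 1 replicate 3 and JQ1 day 3 replicate 3. Of all genes tested over both days, 20.4% were called higher and 16.2% lower.

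JQ1 day 3 replicate 3 was the library with the highest *nkl.3* and *eomesa* and the second highest *nkl.2* and *tbx21*. It also had the most genes, 77, that were at least 5 times higher than in every other library. Among 4 genes of egg envelope and yolk, chosen after seeing the values, *vtg1*, which encodes a yolk precursor, had 16150 CPM in it and at most 221 CPM elsewhere, and *zp2.2* of the egg envelope had 16.7 CPM and at most 0.458 CPM elsewhere. *zpax4* had 9.79 CPM and at most 0.192 CPM elsewhere, while *zp3b* had 20.8 CPM and up to 16.9 CPM in another library. Its endothelial marker sum, 114 CPM, was the highest of the 12, and its macrophage marker sum, 1253 CPM, and B-cell marker sum ranked 2nd. Its T-cell marker sum, 1308 CPM, ranked 11th. Its granulocyte, erythrocyte, skin and germ-cell marker sums ranked 6th. The part of these cells in the levels of *nkl.3* and *eomesa* was not tested. Without this library *eomesa* at day 3 had 0.27 (adjusted p = 0.852) and *nkl.2* 0.20 (adjusted p = 0.869).

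Genes that load, release and answer to cytotoxic granules were then counted from lists, over both days. Among markers of other cells, 2 of 4 for macrophages and 2 of 3 for endothelium were called higher at day 3. So were 3 of 3 for skin and 5 of 6 for germ cells, where 15.3% of all genes were. Of the markers of B cells, erythrocytes and granulocytes, 0 of 4, 0 of 2 and 0 of 1 were called at day 3. With any 1 DMSO library of day 3 left out, 0 genes of the whole table were called at that day. Over both days the counts called higher for macrophages, endothelium, skin and germ cells were 0 of 4, 1 of 3, 3 of 3 and 5 of 6. For B cells, erythrocytes and granulocytes they were 0 of 4, 0 of 2 and 1 of 1, beside 20.4% of all genes. The part of these other cells in the lists was not tested. Of 8 genes of granule loading and release, *srgn*, the proteoglycan that packs granule proteases, rose to 314 ± 137 CPM in JQ1 libraries, against 112 ± 53.5 CPM in DMSO libraries (SD, n = 6 each). Its log2 fold change was 1.5 ± 0.38 (SE, edgeR adjusted p = 0.0105). *unc13d*, which primes granules for fusion, fell to 220 ± 63.3 CPM with JQ1, against 397 ± 76.3 CPM with DMSO (−0.86 ± 0.21, adjusted p = 0.00992). The list had a median of 0.37, beside 0.10 over all genes, of which 20.4% were called higher and 16.2% lower. With scaling by T-cell markers *unc13d* had 0.13 and was no longer called, and with ERCC scaling *srgn* had 0.60 and was no longer called. With ERCC scaling *unc13d* had −1.78 and was called, where 38.0% of all genes were called lower. With T-cell marker scaling *srgn* had 2.52 and was called, where 33.2% were called higher. The median of all genes over both days was −0.83 with ERCC scaling and 1.18 with T-cell marker scaling. At day 3 it was −0.38 and 1.72. Values with these scalings, here and in the lists below, include such shifts. With TMM both calls over both days held without any 1 library. At day 3 *srgn* was the 1 gene of the list called (2.12 ± 0.48, adjusted p = 0.0284), a call that was lost in 4 of 6 cases with 1 library left out.

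Over both days, where 20.4% of all genes were called higher, 2 of 7 tested death ligands and type 1 cytokines (median 1.33) rose. They were *faslg*, the Fas ligand (5.72 CPM with JQ1, 1.01 CPM with DMSO, log2 fold change 2.16 ± 0.75, edgeR adjusted p = 0.0394), and *tnfb*, a tumor necrosis factor gene (48.2 CPM with JQ1, 13.9 CPM with DMSO, 2.02 ± 0.70, adjusted p = 0.0407). With 1 library left out the call of *faslg* was lost in 8 of 12 cases and that of *tnfb* in 9 of 12. Both held without DMSO day 1 replicate 3, JQ1 day 1 replicate 1 or JQ1 day 1 replicate 3, and *faslg* also without DMSO day 1 replicate 2. With ERCC scaling they had 1.15 and 1.09 and neither was called. With T-cell marker scaling they had 3.15 and 2.99 and both were called, where 33.2% of all genes were called higher. At day 3 4 of 7 were called higher, where 15.3% of all genes were and 9.91% were lower. These were *il2* (3.62 ± 0.95), *faslg* (3.15 ± 0.78), *tnfb* (2.99 ± 0.73) and *tnfa* (2.70 ± 0.72), with adjusted p between 0.0319 and 0.0383. Without any 1 library of day 3 at most 1 of the 7 was called, and the calls over all genes then ranged from 0 to 3901.

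Among 13 receptors and signal carriers (median 0.13), *il2rb*, the receptor chain for IL-2 and IL-15, rose over both days to 76.3 ± 38.5 CPM with JQ1, against 24.6 ± 11.4 CPM with DMSO (SD, n = 6 each, edgeR log2 fold change 1.62 ± 0.41, adjusted p = 0.0109). With ERCC scaling it had 0.53 and was not called. With T-cell marker scaling it had 2.65 and was called, where 33.2% of all genes were called higher. Over both days 1 of the 13 was called higher and 3 lower, where 20.4% of all genes were higher and 16.2% lower. *il12rb2* of the IL-12 receptor (−1.39 ± 0.32, adjusted p = 0.00747), the T-cell receptor kinase gene *zap70* (−1.0 ± 0.32, adjusted p = 0.0270) and *stat5b* (−0.50 ± 0.18, adjusted p = 0.0428) fell. With ERCC scaling they had −2.34, −1.90 and −1.42 and all were called, where 38.0% of all genes were called lower. With T-cell marker scaling, though, they had −0.41, −0.07 and 0.47 and none was called. The call of *zap70* was lost without JQ1 day 1 replicate 2, DMSO day 3 replicate 3 or JQ1 day 3 replicate 3, and that of *stat5b* in 7 of 12 cases with 1 library left out. At day 3 only *zap70* of the 12 tested was called (−1.48 ± 0.42, adjusted p = 0.0431), where 15.3% of all genes were called higher and 9.91% lower. This call of *zap70* was lost in 5 of 6 cases with 1 library left out and with T-cell marker scaling (−0.12, adjusted p = 0.847).

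Of 12 transcription factors around T-bet and Eomesodermin (median 0.12), 1 rose and 4 fell over both days, where 20.4% of all genes were called higher and 16.2% lower. *id2b*, an inhibitor of E proteins, rose (2.81 ± 0.64, adjusted p = 0.00714; 1.99 with ERCC scaling, adjusted p = 0.0524), and *ets1* (−1.11 ± 0.26, adjusted p = 0.00752), *gata3*, the factor of helper type 2 cells (−1.07 ± 0.33, adjusted p = 0.0260), *tox* (−0.95 ± 0.27, adjusted p = 0.0187) and *tcf7* (−0.71 ± 0.22, adjusted p = 0.0257) fell. With ERCC scaling the 4 that fell had −2.01, −2.03, −1.85 and −1.59 and all were called, where 38.0% of all genes were called lower. With T-cell marker scaling they had −0.13, −0.18, −0.02 and 0.40 and none was called. With that scaling *id2b* had 4.08 and was called, where 33.2% of all genes were called higher. The medians of all genes were −0.83 and 1.18 with these 2 scalings. The call of *gata3* was lost without JQ1 day 1 replicate 2 or DMSO day 3 replicate 3, and that of *tcf7* without DMSO day 3 replicate 3. At day 3, of 11 tested, *id2b* and *zeb2a* were called higher and *ets1* lower, where 15.3% of all genes were higher and 9.91% lower. Each of these calls was lost in 5 of 6 cases with 1 library left out, and *ets1* had 0.039 with T-cell marker scaling (adjusted p = 0.957).

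The *nitr* genes encode a family of immune-type receptors of bony fish, known from natural killer-like cells, with near-identical copies whose counts are uncertain. Of the 24 *nitr* genes, 13 passed the filter over both days. Of these 13, 9 were called higher and 0 lower, where 20.4% of all genes were called higher and 16.2% lower. *nitr4a* had 3.36 CPM with JQ1, against 0.151 CPM with DMSO (4.38 ± 0.69, adjusted p = 0.00161). *nitr2b* had 5.65 CPM with JQ1, against 0.403 CPM with DMSO (3.82 ± 0.60, adjusted p = 0.00162). *nitr6b* had 3 to 29 counts in the 6 JQ1 libraries and 0 counts in all 6 DMSO libraries, so that it was at least 3.74-fold higher against a limit of 3 counts a library. *nitr6a* had 1.03 CPM with JQ1 and 0.0734 CPM with DMSO (3.66 ± 1.22, adjusted p = 0.0340), a call that held in 3 of 12 cases with 1 library left out. The DMSO means of *nitr4a* and *nitr6a* lay below the limit of 3 counts (0.294 CPM on average over DMSO libraries). The sizes of their changes are therefore uncertain. The median of the 13 was 3.00, or 2.97 with *nitr6b* at its limit. Over the cases with 1 library left out 6 to 9 *nitr* genes were called, and with ERCC scaling 4, where 7.10% of all genes were called higher. The 9 genes averaged 0.822 to 7.95 CPM with JQ1 and 0 to 0.766 CPM with DMSO, so that a low gene of this list had to be high with JQ1 to be tested, and the count is a description. At day 3, 4 of 7 tested were called higher, where 15.3% of all genes were. Each of the 4 calls held in at most 2 of 6 cases with 1 library left out.

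**Figure D4:**
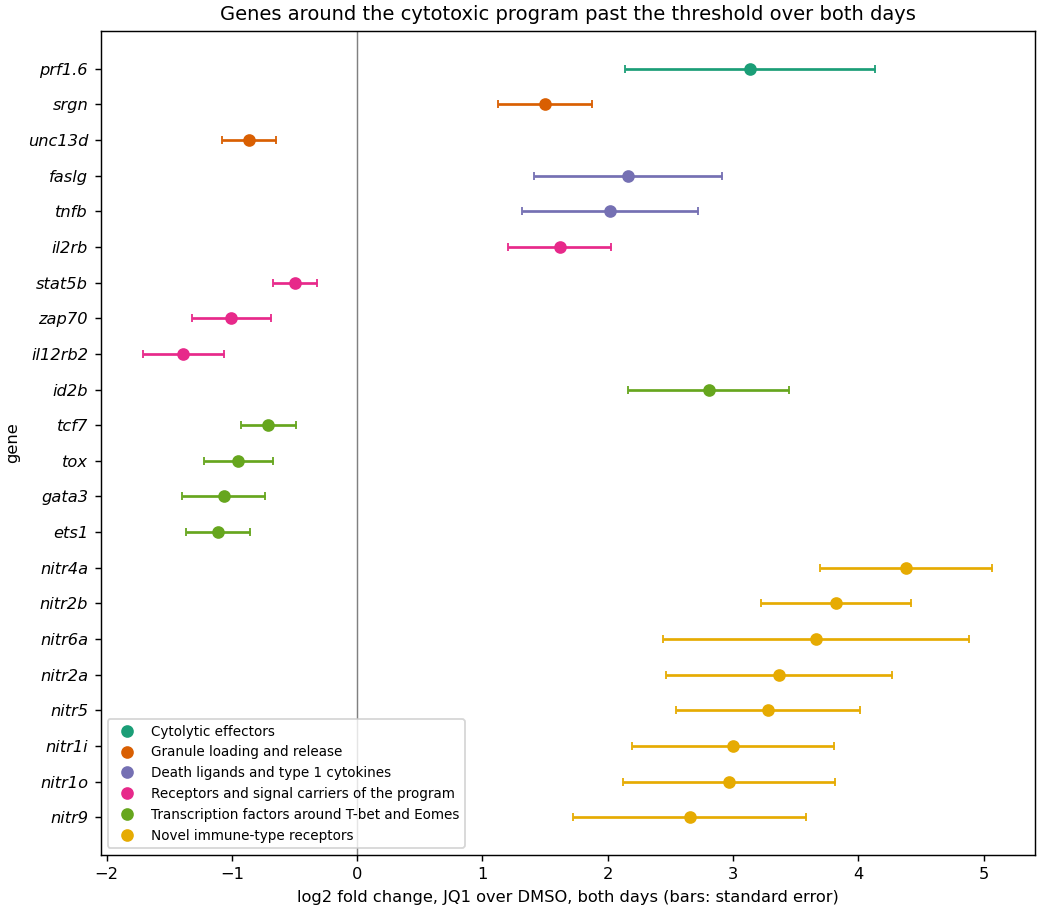
Points give log2 fold changes (JQ1 over DMSO, both days), with bars of 1 standard error, for genes of the lists around the cytotoxic program that passed an adjusted p of 0.05, coloured by list. *nitr6b*, at 0 in all DMSO libraries, is left out, and *nitr4a* (4.38) and *il12rb2* (−1.39) mark the ends of the range.

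The genes whose level over the 12 libraries was most like that of a member were sought among 8786 named genes of at least 10 CPM on average. For *gzma* these were 2 copies of *MCTP1* (Pearson r of log2 CPM 0.90 and 0.88) and *BHLHE40* (0.88), and for *eomesa* *si:ch211-207g17.3*, the Tec-family kinase gene *txk* and *ST3GAL4* (0.92 each). For *tbx21* they were *DENND2C* (0.83), *RNF103* (0.78) and *FICD* (0.77). For *nkl.2* they were *cyth4a* (0.86), *slc6a22.1* (0.85) and *RASGRP2* (0.85), with 0.73 to 0.81 when its top library was left out. For *gzmk* they were *zgc:153012* (0.94), *ALDOA* (0.88) and *AXIN1* (0.88), and without DMSO day 1 replicate 2 these fell to 0.70, 0.30 and 0.63. The libraries differed in depth and in the marker sums of several cell types, which all genes of a library share, and the values are descriptions over 12 points.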

How the data were processed

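RNA of mCherry-sorted tumor cells was measured in 12 libraries, 3 for each of JQ1 day 3, DMSO day 3, JQ1 day 1 and DMSO day 1. Groups came from the labels, which give day 1, while the study's text describes 3 days of treatment. Per the study's methods, libraries kept strand and gave read pairs of 100 bp, STAR 2.5.2a placed them on the GRCz11 genome, only pairs with a unique place stayed, and featureCounts counted these by gene. The deposited table holds whole-number counts, without normalization, on 25607 zebrafish genes, 92 ERCC spike-in sequences, 2 transgenes and 42 receptor constructs, which were at 0. The authors also deposited DESeq2 1.12.4 tables of fold changes and p-values, not used here. How featureCounts treated strand is not given in the sources used here.

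Genes were kept by filterByExpr for each comparison and tested by edgeR 4.0.16 in R 4.3.3 (TMM factors over zebrafish genes, quasi-likelihood test, Benjamini-Hochberg adjusted p of 0.05 over all genes tested, SE from the F statistic). The code was tested on simulated data. Alternatives were RLE factors, DESeq2 1.42.0, ERCC scaling, scaling by 4 T-cell markers, no filter, 1 fit over 12 libraries, the replicate block and each library left out. Member levels are TMM CPM, and log2 CPM used a prior count of 2. Of each other list, genes past the threshold were named, up to 4 a list by size of change (*tcf7* and the genes high in single libraries were named after their values were seen), and like-pattern genes were the 3 with the highest r. *nkl.1* was not analysed here. The members and lists were chosen with earlier results of these data known. Lists matched by name were 12 of 12 effectors, 8 of 13 granule genes, 8 of 8 ligands and cytokines, 13 of 14 receptors, 12 of 17 transcription factors and 24 of 24 *nitr* genes.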

Additional observations from a re-analysis of the deposited data

How the results depend on the processing

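The count of members past the threshold was 0 in all 6 comparisons and stayed 0 under RLE factors, no filter on low counts and the replicate block, and under 1 fit over 12 libraries in the 5 where it was another fit. DESeq2 called 0, but gave no adjusted p to *gzmk* and *nkl.2* in 4 of the 6 (day 1, both days, DMSO over time and the change of effect). With T-cell marker scaling it was 3 at day 3 and 1 over both days, and with ERCC scaling 2 at day 1 and 1 over both days, where 41.0%, 33.2%, 37.6% and 38.0% of all genes were called in the same direction. With each library left out in turn it ranged from 0 to 1 over both days and was 0 otherwise. Correlations of same-numbered deviations were 0.134, −0.126 and −0.0729 at day 1 and −0.0773, 0.03 and −0.262 at day 3. They show no pairing by replicate number, but with 3 libraries a group they cannot exclude one. The replicate block left 0 genes of the whole table called at day 3, and under it *nkl.2* over both days had 0.52 and the change of the JQ1 effect of *gzmk* −0.42.

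The 340 single-gene alternatives belonged to 22 results. These were every member tested in the comparisons of JQ1 with DMSO (day 3, day 1 and both days). In the other comparisons they were *gzmk* and *nkl.2* only. Of the 340, 24 turned sign and 8 came past the threshold. No member passed the threshold in a main fit, so none could lose it. The turns are given as log2 fold changes. With ERCC scaling *gzma* at day 1 had −0.49 and over both days −0.20, *tbx21* −1.39 at day 1 and −0.52 over both days, *eomesa* −1.02 at day 1, and *gzmk* 0.15 for JQ1 day 3 against JQ1 day 1. With T-cell marker scaling *gzmk* at day 3 had 0.30 and *nkl.2* over both days 0.32. These scalings moved the median of all genes, and set against that median each of these 8 kept its sign. With 1 library left out, *gzma* ranged from −0.032 to 1.39 at day 3, *gzmk* from −4.38 to 1.04, *nkl.2* from −3.25 to 2.23 and *tbx21* from −0.74 to 0.57 at day 1, and *nkl.2* from −1.37 to 1.61 over both days. The ranges were −4.39 to 1.08 for *gzmk* and −3.29 to 2.2 for *nkl.2* in DMSO day 3 against DMSO day 1, and −2.14 to 3.44 for *gzmk* and −1.07 to 4.56 for *nkl.2* in the change of the JQ1 effect. Without DMSO day 1 replicate 2 and JQ1 day 3 replicate 3, added after seeing the data, *gzmk* over both days had 0.067, *nkl.2* 1.17, and the changes of effect were −1.96 and −2.06. The cause of these turns was not tested. Over all genes, the calls differed by over 1.5 times between edgeR and DESeq2, with 4104 and 6292 at day 3, 7 and 2013 at day 1, 5 and 187 for JQ1 day 3 against JQ1 day 1, 0 and 119 for DMSO day 3 against DMSO day 1, and 0 and 39 for the change of effect. With 1 library left out they ranged from 0 to 3901 at day 3 and from 0 to 1591 at day 1, against 4104 and 7 with all libraries. Few libraries a side and single libraries with up to 81.7% of a gene's counts limit what can be shown for these members, and *nkl.3* and *nkl.4* were near the limit of 3 counts.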
